A study of Mus musculus with 6 samples.

Results

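The cytokine receptors and JAK-STAT signalling genes of mouse MLL-AF9 leukaemia cells form a list of 40 named genes, 30 of them receptor chains and 10 of them kinases, STAT factors and SOCS inhibitors. The members were chosen by name, with earlier results of these data known. Counts over the list are therefore not independent of these data. Of the 40, 38 were measured among the 22180 genes that had a probe set with 1 gene symbol. The exceptions were Il1rl1 and Il2rg, which are not analysed here. Each gene was read by 1 probe set, the one with the highest mean over the arrays. Expression was measured on 6 arrays, 3 of MLL-AF9 leukaemia cells from mice with an Evi1 transgene (Evi1 Tg) and 3 of MLL-AF9 leukaemia cells from wild-type mice (WT). Both groups were of strain C57BL/6J, untreated and driven by the same MLL-AF9 fusion oncogene, and each array read the total RNA of 10000 cells sorted for green fluorescent protein. Evi1 is a zinc finger transcription factor encoded by Mecom. The labels give neither the promoter of the transgene nor the age of the animals. They also leave unsaid if each array came from its own animal, and the p-values therefore reflect the spread between these samples, which may be technical. The labels describe a culture medium with stem cell factor, GM-CSF, IL-3 and IL-6 for colony assays, and do not say whether the cells on the arrays had been grown in it.

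Most of these receptors have no enzyme activity of their own. When a cytokine brings the receptor chains together, JAK kinases bound to their tails phosphorylate the receptor, STAT factors dock there, are phosphorylated and move to the nucleus, and genes such as Cish and the Socs genes are induced and shut the signal off again. The receptors for IL-1, IL-18, TNF and IL-17 in the list signal through other adaptors towards NF-kappaB. In myeloid progenitors and myeloid leukaemia cells, GM-CSF, IL-3, G-CSF and IL-6 are known to promote survival, growth and maturation.

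The arrays had median intensities of 51.6 to 55.4, and Pearson correlations across genes, which are not independent replicates, were 0.978 to 0.992 within groups and 0.972 to 0.985 across groups. Mecom had intensities of 40.7, 37.7 and 37.5 in Evi1 Tg 1, 2 and 3, against 39.4, 37.4 and 34.1 in WT 1, 2 and 3, and all of these values lay below a background level of 80.4, so the array values do not check the labels of the transgene. That level is the 90th percentile of the means of 79 genes known not to be expressed in blood cells. All 8 markers of myeloid leukaemia cells, among them Ptprc, Spi1, Mpo and Hoxa9, were above background. Of the measured markers, 0 of 5 were above it for T cells, 0 of 5 for B cells, 0 of 5 for NK cells and 0 of 3 for erythroid cells. Above it were 6 of 7 neutrophil markers, 4 of 8 macrophage markers and 3 of 5 megakaryocyte markers. The lists of mast cells and basophils, eosinophils, dendritic cells, and stroma and endothelium each had 1 marker above it. Dim genes were kept in the test, and differences between dim values are compressed.

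Of the 38 measured members, 31 (81.6%) had a mean over the arrays above background, against 42.8% of all genes. They included all 4 chains for GM-CSF and IL-3, all 6 chains for interferons and IL-10, all 3 TNF and IL-17 receptors, both JAK kinases, all 4 STAT factors and all 4 SOCS genes. The 7 members that stayed below it in both groups were Il1r1, Il18r1, Il7r, Il27ra, Lifr, Osmr and Epor. Il21r was above background in WT alone, with no Evi1 Tg array above it, and the Socs2 mean was above it in Evi1 Tg alone. The count and these lists depend on the level chosen. The 75th percentile of the same 79 genes was 59.4, and WT means of Il1r1, Il7r and Il27ra, at 68.3, 70.9 and 72.5, lay above that. So did the Evi1 Tg mean of Il21r, at 72.1.

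**Figure D1:**
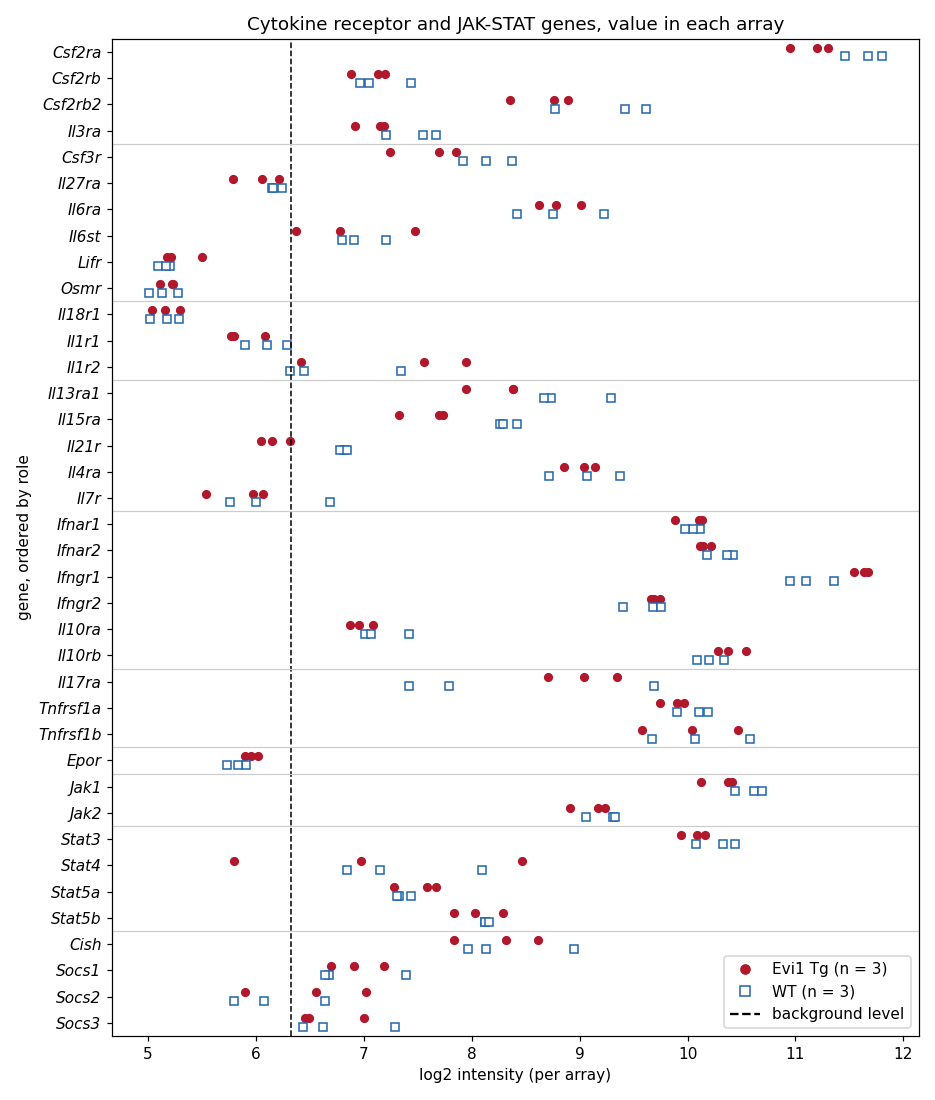
Log2 intensity of the 38 measured members in each array, by gene in order of role. Filled circles are the 3 Evi1 Tg arrays, open squares the 3 WT arrays, and the dashed line is the background level of 6.33 on the log2 scale. Il21r lies on either side of the line by group, and different genes have different probe sets, so levels are not compared between genes.

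No member passed the test of Evi1 Tg against WT, and the 2 members with the smallest p-values, Il21r and Il15ra, were receptor chains with less signal in Evi1 Tg. With limma and Benjamini-Hochberg adjustment over all genes, 0 of 38 members had an adjusted p under 0.05, against 0.113% of all genes, 0.104% with lower and 0.00902% with higher values in Evi1 Tg. At an unadjusted p under 0.05 there were 8 members with a difference below 0, against 5.8% of all genes, and 1 with a difference above 0, against 4.5%. The groups did not overlap, in that all 3 Evi1 Tg arrays lay on 1 side of all 3 WT arrays, for 7 members with lower and 1 with higher Evi1 Tg values, against 7.47% and 7.08% of all genes. As shares of the 38 members, 21.1% had a difference below 0 at an unadjusted p under 0.05, and 18.4% had lower Evi1 Tg values without overlap. The same shares among the 9502 genes above background, a set without dim genes, were 10.4% and 11.2%. Among the 31 members above background they were 25.8% and 22.6%. That set includes Il21r, above background in WT alone and counted in both shares, and Socs2, above it in Evi1 Tg alone. The list was chosen with earlier results of these data known, so these shares and those that follow are not an independent test.

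The median log2 difference of the members, taken as Evi1 Tg minus WT, was -0.093, and that of all genes was 0.012. Of the 38 differences, 25 (65.8%) were below 0, against 46.5% over all genes. Both figures leaned on single arrays. Without Evi1 Tg 2 the median was -0.0070 with 19 of 38 below 0, and without WT 2 it was -0.012 with 20 of 38 below 0. The number of members below 0 at an unadjusted p under 0.05 was 4 without Evi1 Tg 2 and 5 without each of Evi1 Tg 1, WT 1 and WT 2, against 3.9%, 4.34%, 4.6% and 5.44% of all genes in the same fits, and it was 8 without Evi1 Tg 3 and 10 without WT 3, against 6.11% and 7.05%.

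**Figure D2:**
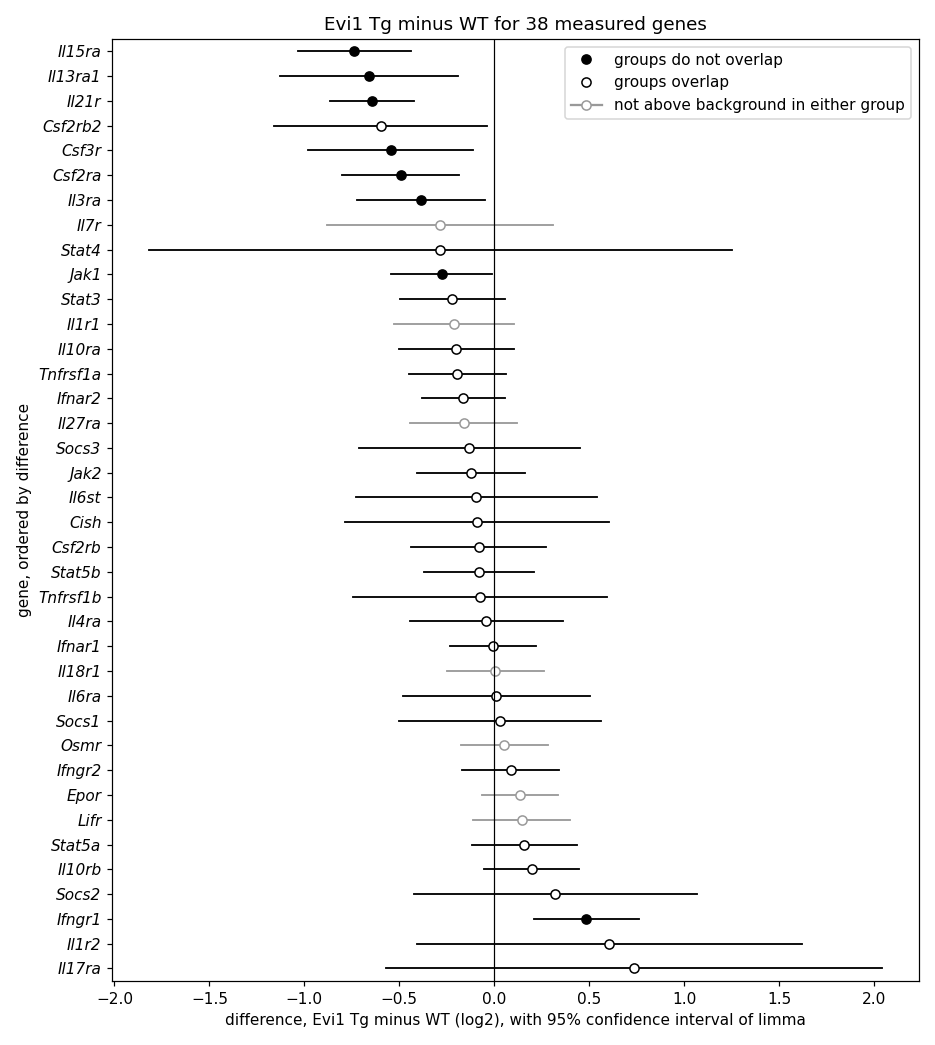
Log2 difference of each of the 38 members, taken as Evi1 Tg minus WT, with the 95% confidence interval of limma, ordered by size. Filled points are genes whose groups did not overlap, and grey points are genes below background in both groups. Il15ra, Il13ra1 and Il21r stand at the low end, and Ifngr1 is the filled point above 0.

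Receptors for IL-15, IL-21 and IL-13 had less signal in every Evi1 Tg array than in any WT array. Il21r encodes the receptor for IL-21 and pairs with the common gamma chain. It had intensities of 66.2, 79.9 and 70.8 in Evi1 Tg 1, 2 and 3, against 113, 110.1 and 115 in WT 1, 2 and 3. The WT values lie close together, and the Evi1 Tg values are all under the background level. The WT mean was 1.40 times that level, a ratio that takes no account of the spread of the arrays. It also depends on the level chosen, as all 3 Evi1 Tg values lay above the 75th percentile level of 59.4. The confidence interval of limma for the log2 difference was -0.86 to -0.42. On the log2 scale the mean was 6.17 ± 0.14 in Evi1 Tg and 6.81 ± 0.031 in WT (SD, n = 3 each), and the difference was -0.64 (limma, SE 0.0939, adjusted p = 0.0811), the smallest p of the members. Il21r passed the threshold without WT 3 (limma adjusted p = 0.0432, where 2.51% of all genes passed) and with array weights (0.043, where 0.514% passed), and in none of the other 13 alternatives.

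Il15ra encodes the chain that binds IL-15 and presents it to the signalling chains of neighbouring cells. Its intensities were 213, 160.5 and 207 in Evi1 Tg 1, 2 and 3, against 342, 308 and 312 in WT 1, 2 and 3. The log2 means were 7.59 ± 0.23 in Evi1 Tg and 8.32 ± 0.082 in WT (SD, n = 3 each), a difference of -0.74 (limma, SE 0.126, adjusted p = 0.123). Differences over the 15 alternatives lay between -0.81 and -0.61, and adjusted p between 0.0543 and 0.486. Il13ra1, which binds IL-13 and joins the IL-4 receptor chain in the type II receptor, had intensities of 246, 334 and 334 in Evi1 Tg 1, 2 and 3, against 625, 426 and 406 in WT 1, 2 and 3. WT 1 was the highest and Evi1 Tg 1 the lowest array, and the difference was -0.66 (limma, SE 0.198, adjusted p = 0.315).

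The sum of eosinophil markers differed between the groups in the same direction as these 3 receptors, though not every marker did. The summed intensity of these 5 genes was 225, 226 and 247 in Evi1 Tg 1, 2 and 3, against 309.6, 365 and 344 in WT 1, 2 and 3, so the groups did not overlap. Of these markers Siglecf had a mean above background, with 80.6 in Evi1 Tg, next to the level of 80.4, and 153 in WT. Epx, Prg2, Il5ra and Ccr3 did not, and 0 of 5 passed the test. Il5ra went the other way, with means of 39.2 in Evi1 Tg and 36.9 in WT. The part of such cells in the receptor values was not tested. B cell markers, 0 of 5 above background, had sums of 251 to 258 in Evi1 Tg and 261 to 325 in WT, and T cell markers, also 0 of 5, had sums of 239 to 244 in Evi1 Tg and 222 to 234 in WT. The sums of the other 9 lists overlapped between the groups.

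The remaining measured chains of this family did not differ beyond the spread of the arrays. Il4ra, the chain shared by the receptors for IL-4 and IL-13, had a difference of -0.044 (SE 0.171) and a 95% interval of -0.45 to 0.36. Il4ra lies on chromosome 7, as Il21r does. Il7r, the IL-7 receptor chain of lymphoid cells, was below background in both groups. Its highest value was 103 in WT 2, against 46.6 to 67.1 in the 3 Evi1 Tg arrays.

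The 250 bases before the start of Il21r and of Il15ra are shown because these genes had the smallest p-values of the members. The sequences of promoters here are those of RefSeq on GRCm38.p6, 5′ to 3′ on the gene's strand, and 34 members had at least 1 such window. Capitals mark matches to TTCNNNGAA, the palindrome bound by STAT dimers, or to GAAA, any 2 bases and GAAA, the interferon-stimulated response element, each searched on both strands. Of 32851 windows of this length in the RefSeq table, 7.02% held the STAT palindrome and 2.98% the response element, and neither was found in the windows of these genes, of which Il15ra has 2 with 1 shown.
Il21r, chr7:125603179-125603428, plus strand: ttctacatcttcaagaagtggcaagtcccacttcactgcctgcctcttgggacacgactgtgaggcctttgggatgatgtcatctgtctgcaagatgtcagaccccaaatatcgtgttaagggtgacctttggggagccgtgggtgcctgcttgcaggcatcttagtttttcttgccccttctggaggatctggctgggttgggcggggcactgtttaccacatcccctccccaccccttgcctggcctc
Il15ra, chr2:11705043-11705292, plus strand: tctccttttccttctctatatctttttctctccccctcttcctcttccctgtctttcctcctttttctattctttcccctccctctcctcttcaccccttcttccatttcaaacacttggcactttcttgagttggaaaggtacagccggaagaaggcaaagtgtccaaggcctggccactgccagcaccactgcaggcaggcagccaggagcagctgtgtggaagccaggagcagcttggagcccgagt

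None of the receptor chains for GM-CSF, IL-3 and G-CSF passed the test. Csf2ra, Il3ra and Csf3r had lower values in every Evi1 Tg array than in any WT array, while the groups overlapped for Csf2rb2 and Csf2rb. Csf2ra encodes the chain that binds GM-CSF. It had intensities of 1972, 2522 and 2353 in Evi1 Tg 1, 2 and 3, against 3566, 3257 and 2813 in WT 1, 2 and 3. All 3 Evi1 Tg arrays were under all 3 WT arrays, with a difference of -0.49 (limma, SE 0.131, adjusted p = 0.253). Il3ra, which binds IL-3, had intensities of 142, 121 and 146 in Evi1 Tg 1, 2 and 3, against 204, 187 and 147 in WT 1, 2 and 3. The groups did not overlap, though Evi1 Tg 3 and WT 3 lay side by side, and the difference was -0.39 (limma, SE 0.143, adjusted p = 0.418).

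Csf2rb2 encodes a second beta chain that in the mouse serves IL-3 alone. Its intensities were 433, 328 and 476 in Evi1 Tg 1, 2 and 3, against 685, 784 and 437 in WT 1, 2 and 3. WT 3 stood between Evi1 Tg 1 and Evi1 Tg 3, so the groups overlapped, and the difference was -0.60 (limma, SE 0.238, adjusted p = 0.450). Without WT 3 it was -0.85 and without WT 2 it was -0.43. Csf2rb, the beta chain common to GM-CSF, IL-3 and IL-5, had intensities of 141, 118 and 146 in Evi1 Tg 1, 2 and 3, against 133, 174 and 125 in WT 1, 2 and 3. The groups overlapped, and the difference was -0.082 (SE 0.151) with a 95% interval of -0.44 to 0.27. It was 0.063 without WT 2 and 0.014 without Evi1 Tg 2. Csf2rb and Csf2rb2 are neighbouring genes of closely similar sequence, and cross-hybridisation between their probes was not tested.

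The window before the start of Csf2rb2 is shown because it was the 1 window among these 4 chains that held a match, a STAT palindrome that begins 15 bases before the start. Csf2rb has no window in the RefSeq table and was not searched.
Csf2rb2, chr15:78305722-78305971, minus strand: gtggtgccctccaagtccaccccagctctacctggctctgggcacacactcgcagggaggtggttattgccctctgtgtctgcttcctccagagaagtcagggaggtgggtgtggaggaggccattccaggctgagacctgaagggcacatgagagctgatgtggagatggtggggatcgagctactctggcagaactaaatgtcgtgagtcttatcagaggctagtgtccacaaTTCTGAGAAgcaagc

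Csf3r, the G-CSF receptor of neutrophils and their precursors, had intensities of 208, 151 and 231 in Evi1 Tg 1, 2 and 3, against 280.3, 333 and 243 in WT 1, 2 and 3. The groups did not overlap, with Evi1 Tg 3 and WT 3 next to each other, and the difference was -0.55 (limma, SE 0.185, adjusted p = 0.367). Neutrophil markers varied within both groups, with summed intensities of 7 genes of 3848 to 10837 in Evi1 Tg and 3981 to 11654 in WT. Their part in the Csf3r values was not tested.

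Receptors of the IL-6 family showed no such separation. Il6ra, which binds IL-6, had intensities of 516, 395 and 441 in Evi1 Tg 1, 2 and 3, against 430.1, 599 and 341 in WT 1, 2 and 3. The groups overlapped throughout, and the difference was 0.01 (SE 0.209) with a 95% interval of -0.48 to 0.50. Il6st encodes gp130, the signalling chain of IL-6, LIF and oncostatin M. Its intensities were 110.1, 178 and 82.7 in Evi1 Tg 1, 2 and 3, against 120.1, 111 and 147 in WT 1, 2 and 3, so that the highest and the lowest array were both Evi1 Tg. The difference was -0.094 (SE 0.269), with a 95% interval of -0.73 to 0.54. Lifr and Osmr, the partners of gp130 for LIF and oncostatin M, had all values between 32.2 and 45.3, and Il27ra, the IL-27 receptor chain, had values of 55.4 to 75.6, all below background.

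**Figure D3:**
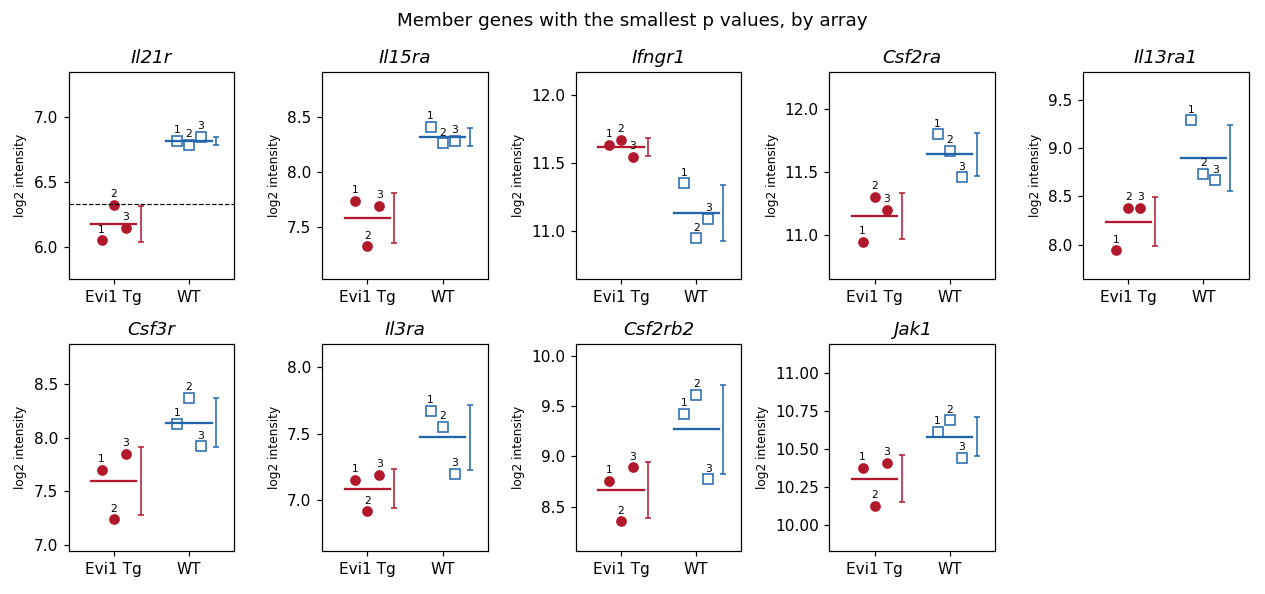
Log2 intensity of the 9 members with an unadjusted p under 0.05, in order of p. Filled circles are Evi1 Tg and open squares WT, numbered by array, with the group mean as a line and the SD (n = 3) as a bar. Axes differ between panels and do not start at 0, and the dashed line in the first panel is the background level. In Il21r and Il15ra the groups are far apart, while WT 3 comes close to the Evi1 Tg arrays in Il3ra, Csf2rb2 and Jak1.

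Ifngr1, the chain that binds interferon gamma, was the 1 member with more signal in every Evi1 Tg array than in any WT array. It had intensities of 3181, 3256 and 2986 in Evi1 Tg 1, 2 and 3, against 2615, 1976 and 2185 in WT 1, 2 and 3. The log2 means were 11.62 ± 0.065 in Evi1 Tg and 11.13 ± 0.20 in WT (SD, n = 3 each), with a difference of 0.48 (limma, SE 0.117, adjusted p = 0.225). Differences over the alternatives lay between 0.39 and 0.60 and adjusted p between 0.140 and 0.656.

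The other chains of the interferon and IL-10 receptors had groups that overlapped. Ifngr2, the signalling partner of Ifngr1, had intensities of 825, 858 and 811 in Evi1 Tg, against 819.8, 865 and 678 in WT, with a difference of 0.085 (SE 0.109). Ifnar1 and Ifnar2 form the receptor for type I interferons. Ifnar1 had a difference of -0.0073 (SE 0.0964), with a 95% interval of -0.23 to 0.22. Ifnar2 had one of -0.16 (SE 0.0926), with values of 1110 to 1191 in Evi1 Tg and 1162 to 1371 in WT. Il10ra, which binds IL-10, had a difference of -0.20 (SE 0.128), and Il10rb, the partner it shares with the type III interferon receptor, one of 0.20 (SE 0.106). Ifnar2, Il10rb, Ifnar1 and Ifngr2 form a known gene cluster on chromosome 16, and their 4 differences lay between -0.16 and 0.20.

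Stat4, Il17ra and Il1r2 had the largest spread among arrays of a group, in each case larger than the difference between the groups. Stat4, which carries IL-12 signals, had intensities of 125, 55.6 and 353 in Evi1 Tg 1, 2 and 3, against 142, 273 and 115 in WT 1, 2 and 3. Evi1 Tg held both the highest and the lowest array. The difference was -0.28 (SE 0.650), with a 95% interval of -1.82 to 1.25, and it was 0.36 without Evi1 Tg 2 and 0.080 without WT 2. Il1r2, a decoy receptor that binds IL-1 without signalling, had intensities of 188, 85.5 and 247 in Evi1 Tg 1, 2 and 3, against 87, 163 and 79.5 in WT 1, 2 and 3, high in Evi1 Tg 1, Evi1 Tg 3 and WT 2, with a difference of 0.61 (SE 0.429). Il17ra, the receptor chain common to IL-17 cytokines, had intensities of 651, 419 and 528 in Evi1 Tg 1, 2 and 3, against 171, 827 and 221 in WT 1, 2 and 3. WT 2 exceeded every Evi1 Tg array, while WT 1 and WT 3 were under them. The difference was 0.73 (SE 0.553), and it was 1.43 without WT 2 and 0.29 without WT 1.

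The pooled SD within groups on the log2 scale was 1.05 for Stat4, 0.89 for Il17ra and 0.69 for Il1r2, while its median was 0.20 over the 31 members above background in a group and 0.19 over all genes above background. The neutrophil markers also varied among arrays of a group. Their summed intensity was 4777, 3848 and 10837 in Evi1 Tg 1, 2 and 3, against 5202, 11654 and 3981 in WT 1, 2 and 3. Evi1 Tg 3 and WT 2, the 2 arrays with most neutrophil signal, were also the 2 with most Stat4 and Tnfrsf1b signal. The top 2 arrays were WT 2 and Evi1 Tg 1 for Il17ra, and Evi1 Tg 3 and Evi1 Tg 1 for Il1r2. The part of the neutrophil markers in these values was not tested. Of the 7 neutrophil markers measured, Ltf was the 1 not above background.

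Tnfrsf1b, the TNF receptor of leukocytes, had intensities of 1056, 766 and 1411 in Evi1 Tg 1, 2 and 3, against 1075, 1525 and 816 in WT 1, 2 and 3. Its difference was -0.077 (SE 0.284), small beside an interval of -0.75 to 0.59. Tnfrsf1a, the death domain receptor of TNF found on most cells, varied less, with a difference of -0.19 (SE 0.109). Il1r1, the signalling receptor of IL-1, and Il18r1, that of IL-18, were below background in both groups, with values of 54.7 to 78.1 and of 32.3 to 39.3. The window before Tnfrsf1b is shown because it was the 1 member window that held both motifs, a STAT palindrome that begins 181 bases and a response element that begins 10 bases before the start.
Tnfrsf1b, chr4:145246871-145247120, minus strand: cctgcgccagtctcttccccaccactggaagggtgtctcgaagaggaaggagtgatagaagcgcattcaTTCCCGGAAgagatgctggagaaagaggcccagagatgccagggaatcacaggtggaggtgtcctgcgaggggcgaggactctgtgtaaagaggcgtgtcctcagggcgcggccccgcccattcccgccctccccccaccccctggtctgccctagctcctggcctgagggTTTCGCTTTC

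The arrays WT 2 and Evi1 Tg 2 stood at opposite ends for this gene list. WT 2 was the highest of the 6 arrays for 18 of 38 members and Evi1 Tg 2 the lowest for 15. The median deviation of the members from their mean over the arrays was -0.0029, -0.18 and -0.029 in Evi1 Tg 1, 2 and 3, against 0.018, 0.26 and -0.068 in WT 1, 2 and 3. Over all genes it lay between -0.013 and 0.016. Summed markers of megakaryocytes, stroma and endothelium, B cells, eosinophils, macrophages and neutrophils were also highest in WT 2. The macrophage sums of WT 2 and WT 1 lay close together, at 5654 and 5628. The sums of T cells, NK cells, erythroid cells, dendritic cells and myeloid leukaemia cells were highest in other arrays. Markers of mast cells and basophils had their highest sum in WT 2 too, with sums over 7 genes of 309 to 375 in Evi1 Tg. In WT 1, 2 and 3 these sums were 303, 1102 and 617, so that WT 3 was high as well. In this list only Ms4a2 had a mean above background, while Cpa3, Mcpt8, Fcer1a, Gata2, Tpsb2 and Mcpt4 did not, and the part of such cells in the members' values was not tested. In bulk samples fewer cells of a type and less RNA per cell cannot be told apart.

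**Figure D4:**
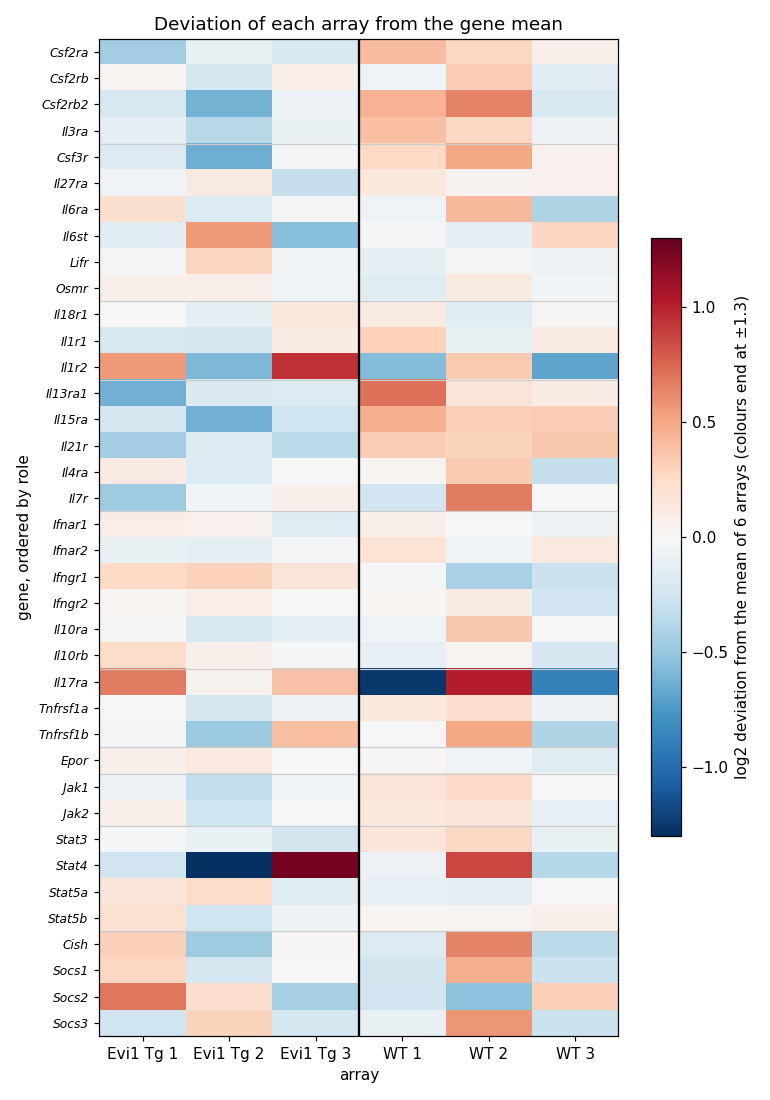
Deviation of each array from the mean of the 6 arrays for the 38 members, on the log2 scale, with genes in order of role and Evi1 Tg arrays left of WT arrays. Red is above and blue below the mean, and colours end at ±1.3. The column of WT 2 is mostly red, that of Evi1 Tg 2 mostly blue, and Stat4 and Il17ra have the strongest colours.

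The kinases and Stat3 had less signal in Evi1 Tg by small amounts, within the spread of the arrays for Jak2 and Stat3. Jak1, a kinase bound by receptors of the interferon, IL-6 and common gamma families, had intensities of 1329, 1118 and 1359 in Evi1 Tg 1, 2 and 3, against 1565, 1652 and 1392 in WT 1, 2 and 3. The groups did not overlap, and the difference was -0.28 (limma, SE 0.112, adjusted p = 0.460). Jak2, the kinase of the GM-CSF, IL-3 and erythropoietin receptors, had intensities of 601, 482 and 577 in Evi1 Tg, against 634, 641 and 533 in WT, with a difference of -0.12 (SE 0.121). Stat3, which carries IL-6 and G-CSF signals, had a difference of -0.22 (SE 0.118) and values of 1144, 1086 and 979.9 in Evi1 Tg, against 1287, 1385 and 1080.5 in WT. WT 3 had a value within the range of Evi1 Tg there.

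Stat5a and Stat5b, the neighbouring genes for the factors that carry GM-CSF and IL-3 signals, had differences of opposite sign. Stat5a had intensities of 192, 203 and 155 in Evi1 Tg, against 160.2, 158 and 173 in WT, with a difference of 0.16 (SE 0.118). Stat5b had intensities of 313, 229 and 261 in Evi1 Tg, against 279, 278 and 285 in WT, with a difference of -0.08 (SE 0.122). The 95% intervals were -0.12 to 0.44 and -0.37 to 0.21, and the groups overlapped for both genes. Their sequences are similar, and cross-hybridisation was not tested.

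The feedback inhibitors, which are read as early products of STAT activity, differed in sign. Cish, induced by STAT5, had intensities of 392, 229 and 319 in Evi1 Tg 1, 2 and 3, against 280.0, 495 and 249.9 in WT 1, 2 and 3, with a difference of -0.091 (SE 0.295) and a 95% interval of -0.79 to 0.60. Its other probe set gave 0.087 (SE 0.200). Socs1, an inhibitor of JAK kinases induced by interferons, had intensities of 146, 104 and 120.4 in Evi1 Tg, against 102, 168 and 99.5 in WT, with a difference of 0.03 (SE 0.226). Socs3, which binds gp130 and the G-CSF receptor, had intensities of 87.9, 128 and 90.1 in Evi1 Tg, against 98.4, 157 and 86.5 in WT, with a difference of -0.13 (SE 0.247). WT 2 was the highest array for all 3 of these genes.

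Socs2, an inhibitor of growth hormone signalling, was lowest in WT 2. It had intensities of 129.9, 93.9 and 59.7 in Evi1 Tg 1, 2 and 3, against 67.6, 55.6 and 99.6 in WT 1, 2 and 3, with a difference of 0.32 (SE 0.316). It was above background in 2 of 3 Evi1 Tg arrays and in 1 of 3 WT arrays. The second probe set of Socs2 read 68.2 in Evi1 Tg and 56.9 in WT as means, a difference of 0.26 (SE 0.132), and the second one of Socs3 read 34.5 in Evi1 Tg and 35.2 in WT, all below background.

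Epor, the erythropoietin receptor of red cell precursors, had intensities of 62.2, 64.8 and 59.7 in Evi1 Tg, against 59.9, 57.1 and 53.1 in WT and was below background in every array.

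The windows before Socs1 and Socs3 are shown because these 2 genes are read as interferon and STAT targets and each window held a match. In Socs1 the response element matched at 2 overlapping places that begin 83 and 77 bases before the start, and in Socs3 a STAT palindrome begins 154 bases before it. Over all member windows, 8 of 43 (18.6%) held the STAT palindrome, against 7.02% of all windows in the RefSeq table. The response element was in 3 of 43 (6.98%), against 2.98%. Some genes have several windows, and these shares were not tested.
Socs1, chr16:10785537-10785786, minus strand: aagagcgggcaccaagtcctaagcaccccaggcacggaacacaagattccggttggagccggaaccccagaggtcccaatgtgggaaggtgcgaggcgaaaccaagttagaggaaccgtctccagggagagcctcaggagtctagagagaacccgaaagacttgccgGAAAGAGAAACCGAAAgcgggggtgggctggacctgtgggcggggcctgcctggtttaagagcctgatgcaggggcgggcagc
Socs3, chr11:117969367-117969616, minus strand: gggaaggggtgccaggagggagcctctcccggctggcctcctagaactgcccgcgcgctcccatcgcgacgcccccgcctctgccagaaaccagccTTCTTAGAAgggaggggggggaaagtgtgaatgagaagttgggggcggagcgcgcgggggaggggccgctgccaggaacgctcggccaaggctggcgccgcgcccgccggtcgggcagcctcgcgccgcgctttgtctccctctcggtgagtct

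Other genes of the pathway, from lists of receptors, ligands, kinases and STAT factors, inhibitors and adaptors, and STAT targets, were measured for 93 of 99 symbols, and 0 passed in either direction over all genes. At an unadjusted p under 0.05, 13 (14.0%) had a difference below 0 and 4 above 0, against 5.8% and 4.5% of all genes. Of the 93 genes 58 had a mean above background. Among all genes above background, 10.4% had a difference below 0 at an unadjusted p under 0.05. That set, unlike the 93, holds no dim genes. The median difference of the 93 genes was -0.042. The smallest adjusted p among them was that of Kit, the receptor for stem cell factor, with intensities of 211, 219 and 316 in Evi1 Tg 1, 2 and 3, against 90.6, 113 and 112 in WT 1, 2 and 3. The groups were far apart, and the difference was 1.22 (limma, SE 0.176, adjusted p = 0.0772). Lepr, the leptin receptor, had a difference of -0.56 (limma, SE 0.103, adjusted p = 0.144) and was below background in every array.

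Among 28 measured ligands, the pair with the smallest p-values had opposite signs. Il12a, the p35 subunit of IL-12, had intensities of 311, 324 and 227 in Evi1 Tg 1, 2 and 3, against 135, 160.4 and 138 in WT 1, 2 and 3, with a difference of 0.98 (limma, SE 0.154, adjusted p = 0.0973). Il1b, which encodes interleukin-1 beta, had intensities of 120.5, 164 and 99.8 in Evi1 Tg 1, 2 and 3, against 352, 508 and 197 in WT 1, 2 and 3, with a difference of -1.39 (limma, SE 0.346, adjusted p = 0.232). WT 3 was the lowest WT array for Il1b and still above all Evi1 Tg arrays.

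Of the kinases and STAT factors outside the members, Tyk2, a kinase of the interferon receptors, had a difference of -0.0018 (SE 0.130), Stat2, which carries type I interferon signals, one of -0.27 (SE 0.117), and Stat6, which carries IL-4 signals, one of -0.10 (SE 0.111). Jak3 is not analysed here. Ptpn1, a tyrosine phosphatase that acts on JAK kinases, had intensities of 373, 341 and 331 in Evi1 Tg 1, 2 and 3, against 635, 518 and 489 in WT 1, 2 and 3, with a difference of -0.64 (limma, SE 0.118, adjusted p = 0.144). Usp18, an interferon-induced inhibitor of the type I interferon receptor, had intensities of 68.7, 69.4 and 62.3 in Evi1 Tg 1, 2 and 3, against 152, 309.7 and 103 in WT 1, 2 and 3, with a difference of -1.34 (limma, SE 0.359, adjusted p = 0.256). All Evi1 Tg values of Usp18 were below background, and its WT mean was 2.11 times the background level. That ratio takes no account of the spread of the WT values, which spanned a wide range. The confidence interval of limma for the log2 difference of Usp18 was -2.19 to -0.49.

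Of 20 genes named as STAT targets, 3 (15%) had a difference below 0 and 2 above 0 at an unadjusted p under 0.05, against 5.8% and 4.5% of all genes, and 10.4% below 0 among genes above background. Cdkn1a, an inhibitor of cyclin-dependent kinases, had intensities of 1904, 1714 and 1867 in Evi1 Tg 1, 2 and 3, against 2793, 2252 and 2656 in WT 1, 2 and 3, with a difference of -0.48 (limma, SE 0.106, adjusted p = 0.195). Id1, an inhibitor of basic helix-loop-helix factors, had intensities of 498, 417 and 535 in Evi1 Tg 1, 2 and 3, against 301, 366 and 286 in WT 1, 2 and 3, with a difference of 0.61 (limma, SE 0.135, adjusted p = 0.197). The groups did not overlap for either gene.

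**Figure D5:**
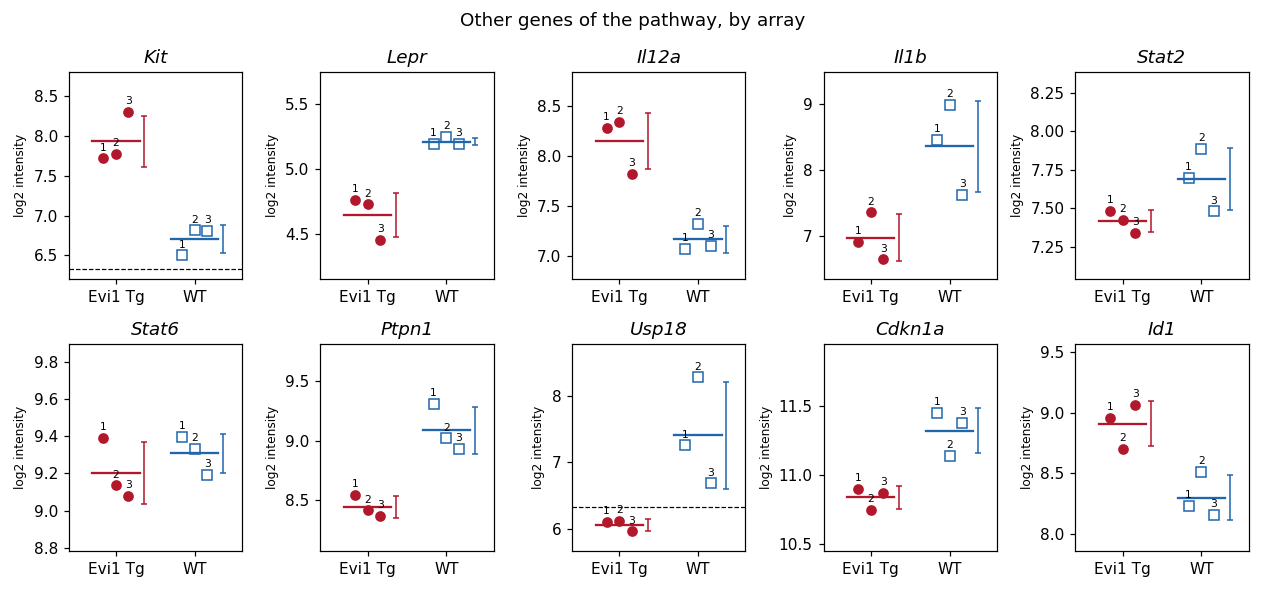
Log2 intensity of 10 other genes of the pathway. Filled circles are Evi1 Tg and open squares WT, numbered by array, with the group mean as a line and the SD (n = 3) as a bar, and the dashed line is the background level where it falls within a panel. Axes differ between panels and do not start at 0. Kit and Il12a are higher and Ptpn1, Il1b and Usp18 lower in all 3 Evi1 Tg arrays than in any WT array.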

How the data were processed

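Per the labels' protocols, total RNA of sorted cells was made into biotin-labelled cDNA by the WT PLUS kit for GeneChip arrays. The authors deposited 1 table of linear intensity values for 34351 probe sets on 6 arrays. The labels do not say how these were corrected, summarised and normalized, and the medians of the arrays are close.

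Probe sets were named through the platform annotation. There were 23521 with 1 symbol, 1814 with several and 9016 with none, and the probe set with the highest mean stood for each of 22180 genes. Entrez identifiers of 23328 probe sets were found in a RefSeq table of GRCm38.p6. Values were log2 transformed without a pseudocount. Evi1 Tg and WT (n = 3 each) were compared two-sided in R 4.3.3 with limma 3.58.1 (lmFit, then eBayes). P-values were adjusted by Benjamini-Hochberg over every gene, with calls at 0.05. With 3 arrays against 3, the smallest p of an exact permutation test is 0.1. The number of arrays limits the precision. Group levels of a gene are 2 to the power of the mean log2 value.

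The members, gene lists and tests were chosen with earlier results of these data known. All members are named, with full values for those above background with an unadjusted p under 0.05 or separate groups and for receptors of the cytokines in the labelled medium. Of the other pathway genes, Kit, Jak3, Tyk2, Stat2, Stat6 and per list the 2 with the smallest p are named. Further values were chosen after they were seen. The alternatives were to normalize by quantiles, to centre arrays on their medians, to leave out dim genes, to weight arrays, to block by replicate number, to add a pseudocount of 16, to average or exchange probe sets, to leave out each array, and to use trend and robust variances or none shared across genes. Motifs were matched by exact letters. Figures were drawn with matplotlib 3.10.9.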

Additional observations from a re-analysis of the deposited data

How the results depend on the processing

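No alternative gave more than 1 member past the threshold, apart from the unadjusted p, with 8 lower and 1 higher in Evi1 Tg. Il21r was called lower with array weights and without WT 3, so that leaving out arrays gave 0 to 1 members lower and 0 higher. The count over all genes, 23 lower and 2 higher, depended more on the settings. It was 82 lower and 32 higher with array weights, 9 and 0 with a pseudocount of 16, 0 and 0 without moderation, and 1286 and 997 at an unadjusted p. Dim genes left out gave 26 and 6, and trend and robust settings 32 and 6. Leaving out each array gave 2 to 173 lower and 0 to 383 higher, with 173 and 383 without WT 3, 39 and 12 without WT 2, and 2 and 0 without Evi1 Tg 2. The cause was not tested.

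The replicate numbers were not taken to pair the arrays, since the deviations of arrays with the same number correlated at 0.189, -0.185 and 0.061. With the replicate block 9 genes were called lower and 0 higher, and 0 members. The median difference of the members stayed below 0 in all alternatives, with a range of -0.20 to -0.0070 when arrays were left out.

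Of the 38 members, 24 kept the sign of their difference in every alternative, among them all 9 with an unadjusted p under 0.05. The other 14 had differences of at most 0.28 in size. Il18r1 was -0.0017 with quantile normalization, -0.0089 with median centring and -0.028 with array weights. Ifnar1 was 0.0072 with quantile normalization. Il6ra was -0.0035 with median centring and -4.0e-04 with array weights, and the other probe set of Cish gave 0.087. Leaving out each array gave -0.18 to 0.063 for Csf2rb, -0.18 to 0.22 for Il6ra, -0.39 to 0.16 for Il6st, -0.21 to 0.11 for Il4ra, -0.068 to 0.068 for Il18r1, -0.052 to 0.069 for Ifnar1 and -0.018 to 0.16 for Ifngr2. It gave -0.29 to 0.16 for Tnfrsf1b, -0.013 to 0.12 for Osmr, -0.98 to 0.36 for Stat4, -0.20 to 0.027 for Stat5b, -0.10 to 0.27 for Socs1, -0.31 to 0.12 for Socs3 and -0.28 to 0.21 for Cish.

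The number of arrays and signals near background limit the precision, and 7 members were below background in both groups.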

Other observations

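Further ligands and receptors, chosen after their values were seen, had groups that did not overlap without passing the test. Those named in this paragraph all had lower Evi1 Tg values. Of the 28 measured ligands, 4 (14.3%) had lower and 1 higher Evi1 Tg values without overlap. For the 19 other receptors the counts were 3 (15.8%) and 1. Over all genes the shares were 7.47% lower and 7.08% higher, and 11.2% were lower among genes above background. Il15, the ligand of the receptor chain Il15ra, had intensities of 131, 94.2 and 135 in Evi1 Tg 1, 2 and 3, against 149, 193 and 175 in WT 1, 2 and 3, with a difference of -0.53 (limma, SE 0.166, adjusted p = 0.330). Il1rn, the antagonist of the IL-1 receptor, had intensities of 182, 188 and 323 in Evi1 Tg 1, 2 and 3, against 576, 469 and 335 in WT 1, 2 and 3, with a difference of -1.01 (limma, SE 0.274, adjusted p = 0.262). Il1a, the other agonist of that receptor, had a difference of -0.70 (limma, SE 0.222, adjusted p = 0.337). Il2ra, the alpha chain of the IL-2 receptor, had one of -0.35 (limma, SE 0.122, adjusted p = 0.387), with an Evi1 Tg mean below background.

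Il18rap, the signalling partner of Il18r1, was above background although Il18r1 was not. Its intensities were 235, 112 and 408 in Evi1 Tg 1, 2 and 3, against 136, 386 and 160.3 in WT 1, 2 and 3, highest in Evi1 Tg 3 and WT 2 as for Stat4, with a difference of 0.12 (SE 0.543). Pim1, a serine kinase gene induced by STAT5, had intensities of 2391, 2220.2 and 2374 in Evi1 Tg 1, 2 and 3, against 1679.9, 1685 and 2120.2 in WT 1, 2 and 3 and a difference of 0.36 (limma, SE 0.113, adjusted p = 0.334). Gfi1, a transcriptional repressor needed for granulocyte maturation, had a difference of -0.79 (limma, SE 0.259, adjusted p = 0.353).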
